A study of Mus musculus with 16 samples.

Results

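The genes of fatty acid oxidation and ketone body formation were examined in the livers of mice with and without *Fgl1* in hepatocytes. They comprised 37 genes listed by symbol, and all 37 had a row among the 17003 genes measured. Liver RNA was sequenced from 16 male mice of 8 weeks on a chow diet, all labelled as fed, with 1 library per mouse. The 8 Fgl1 WT mice carried floxed *Fgl1* alleles and no Cre, and the 8 Fgl1 LKO littermates carried the same floxed alleles and Cre under the albumin promoter, which is active in hepatocytes. No group carried Cre without floxed alleles, so the loss of *Fgl1* and the presence of Cre cannot be told apart, and the other liver cells of Fgl1 LKO mice kept the gene. *Fgl1*, which encodes a protein that hepatocytes secrete, ranged from 157.8 to 1331 FPKM (fragments per kilobase of transcript, scaled to the mapped fragments of the library) in Fgl1 WT livers and from 13.2 to 89.99 FPKM in Fgl1 LKO livers, with no overlap. In bulk liver, fewer cells of a type and less RNA per cell cannot be told apart.

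Fatty acids that enter a hepatocyte are bound by FABP1, activated to acyl-CoA and carried into mitochondria by the carnitine shuttle, whose entry enzyme is CPT1A. Beta-oxidation then shortens the chain in repeated cycles, peroxisomes handle very long and branched chains, and the acetyl-CoA formed can be turned into ketone bodies for other organs. PPARA, a nuclear receptor that binds fatty acids, drives the transcription of much of this pathway in the liver during fasting.

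Each liver showed the levels of liver tissue. The summed level of 6 hepatocyte genes, *Alb* among them, lay between 55853 and 96741 FPKM, while the summed level of the adipocyte and muscle markers lay between 0 and 0.06 FPKM, with *Plin1* and *Ckm* listed at 0 in all 16 livers. The numbers of the mice were grouped into 4 runs, 36 to 38, 48 to 55, 60 to 64 and 69 to 72. The first run held 3 mice that were all Fgl1 WT. Mouse 55, Fgl1 LKO replicate 3, was placed in the second run, although its number is as far from 50 as from 60. Another placing of this mouse was not tested, and each result that uses the runs depends on it. The deposit does not say what such a run stands for. The runs of 3 to 5 mice were too small for a correlation within a run.

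The promoters of these genes were searched because the genes are taught as PPARA targets. PPARA binds, with its partner RXR, to a pair of hexamers in the same orientation with 1 base between them. Searched on both strands in the 250 bases upstream of each start site in GRCm39, the strict hexamer AGGTCA gave such a pair in 0 of 37 promoters and in 0.032% of the promoters of all genes kept, and the relaxed hexamer AGGNCA gave 1 of 37, against 0.289%. The 1 match was in *Fabp1*, on chromosome 6 (chr6:71176559-71176808, plus strand, GRCm39), whose level was the highest of all 37 genes. It lay on the minus strand and began 13 bases before the start site. A match is a run of letters and was not tested as a binding site. In the sequence, capitals mark the matched pair.
Fabp1 upstream: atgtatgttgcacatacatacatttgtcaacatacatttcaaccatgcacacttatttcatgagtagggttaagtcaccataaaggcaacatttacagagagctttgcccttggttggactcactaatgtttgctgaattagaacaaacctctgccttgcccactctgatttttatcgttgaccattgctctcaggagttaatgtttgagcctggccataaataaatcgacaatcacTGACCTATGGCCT

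The acyl-CoA thioesterases *Acot1*, *Acot2*, *Acot3* and *Acot4* lie near each other on chromosome 12, and the coding sequences of *Acot1* and *Acot2* were identical at 95.6% of 1236 aligned bases. Upstream of the start sites the identity was 48.9% over 227 aligned bases. Both windows are shown because the listed levels of this pair differed while their coding sequences were close. Those levels are uncertain, since reads can match both genes, and a relation of the windows to the levels was not tested. Capitals mark CCAAT on either strand, a motif chosen after the sequences were seen. It was present in 16 of the 37 promoters (43.2%) and in 35.9% of the promoters of all genes kept. The *Acot1* window was chr12:84056006-84056255 and the *Acot2* window was chr12:84034178-84034427, both on the plus strand of GRCm39.
Acot1 upstream: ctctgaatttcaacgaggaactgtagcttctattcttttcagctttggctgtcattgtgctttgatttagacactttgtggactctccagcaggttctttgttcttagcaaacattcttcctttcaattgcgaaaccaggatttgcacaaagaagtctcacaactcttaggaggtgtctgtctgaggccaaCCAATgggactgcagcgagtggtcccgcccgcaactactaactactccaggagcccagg
Acot2 upstream: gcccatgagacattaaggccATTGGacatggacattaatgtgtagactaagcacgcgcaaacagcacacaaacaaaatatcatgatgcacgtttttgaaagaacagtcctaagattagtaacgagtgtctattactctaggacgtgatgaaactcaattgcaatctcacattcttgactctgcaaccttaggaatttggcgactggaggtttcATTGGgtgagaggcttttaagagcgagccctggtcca

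**Figure D1:**
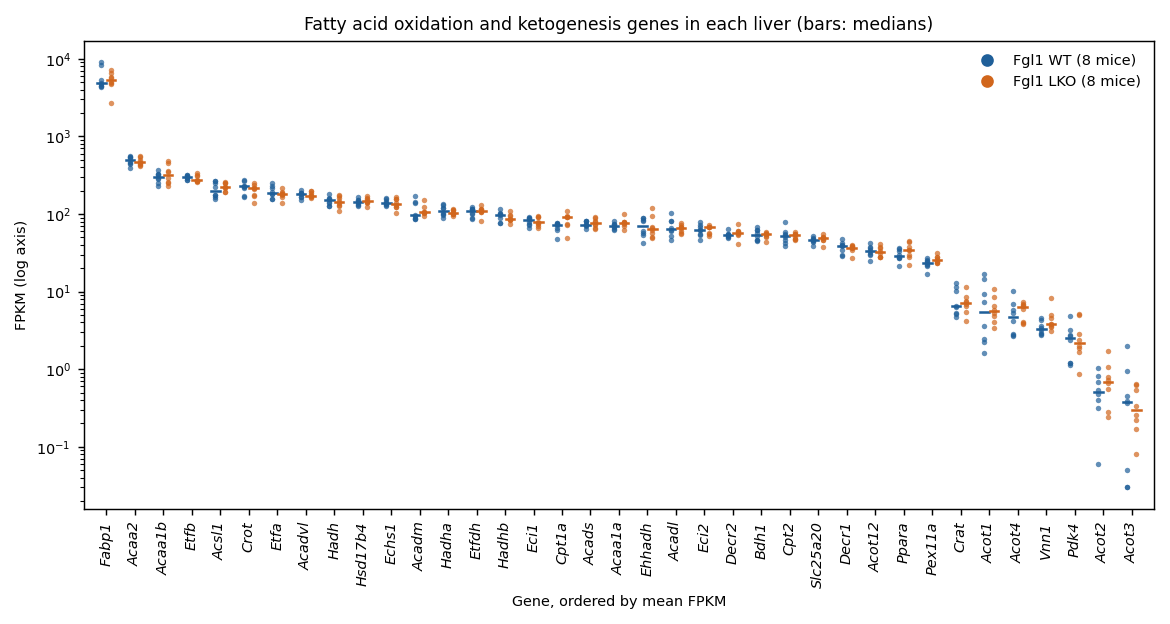
FPKM of each of the 37 genes in each liver on a log axis, with genes ordered by mean FPKM, 1 point per mouse and bars at the medians of the 8 Fgl1 WT and 8 Fgl1 LKO mice. The genes span from *Fabp1*, with a mean of 5516 FPKM, to *Acot3*, with a mean of 0.449 FPKM, and the points of both genotypes overlap for each gene.

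*Fabp1*, which carries fatty acids in the cytosol, made up between 41.4% and 70.5% of the summed FPKM of the 37 genes in a liver. It ranged from 4312 to 9123 FPKM in Fgl1 WT livers (median 4825) and from 2691 to 7247 FPKM in Fgl1 LKO livers (median 5392). Next in level was *Acaa2*, the mitochondrial thiolase of the last step of each cycle, with 394.8 to 558.9 FPKM in Fgl1 WT (median 496.4) and 419.5 to 562.3 FPKM in Fgl1 LKO (median 467.3). The peroxisomal thiolase *Acaa1b* ranged from 232.9 to 371.2 FPKM (median 303.7) and from 230.0 to 486.5 FPKM (median 320.8), respectively. Its coding sequence was identical to that of *Acaa1a* at 96.5% of positions, so reads may have been divided between this pair and their levels are uncertain. The summed FPKM of the other 36 genes, with *Fabp1* left out, was 3061 to 4197 in Fgl1 WT livers and 3053 to 4172 in Fgl1 LKO livers.

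The lowest levels belonged to *Acot3*, *Acot2* and *Pdk4*. *Acot3*, a peroxisomal thioesterase, ranged from 0.03 to 2.01 FPKM in Fgl1 WT (median 0.38) and from 0.08 to 0.65 FPKM in Fgl1 LKO (median 0.30). *Acot2*, the mitochondrial counterpart of the cytosolic *Acot1*, ranged from 0.06 to 1.04 FPKM (median 0.51) and from 0.24 to 1.70 FPKM (median 0.69). *Pdk4*, a kinase that shuts off pyruvate dehydrogenase in fasting, ranged from 1.13 to 4.86 FPKM (median 2.52) and from 0.86 to 5.21 FPKM (median 2.20). Values this low were rounded to 2 decimals in the table, and the levels of *Acot1*, *Acot2* and *Acot3* are uncertain because reads can match more than one of them.

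No gene of the 37 passed the test for a difference between genotypes. The test was limma on log2(FPKM + 1), with Benjamini-Hochberg adjustment over the 12770 genes whose mean reached 0.1 FPKM. An adjusted p under 0.05 was found for 0 of 37 genes and for 0 genes in all (0% of those tested). *Fgl1*, the deleted gene, did not pass either, with a log2 fold change of -3.11 and an adjusted p of 0.0725 by limma. The absence of calls therefore does not show that the 37 genes were unchanged. An unadjusted p under 0.05 was reached by 0 of 37, against 895 genes in all (7.01%), and by 0 of 37 in the exact permutation test over the 12870 splits of the mice. The values of both genotypes overlapped for each of the 37 genes, and 2 genes in all had no overlap (0.0157%). The log2 fold change of Fgl1 LKO over Fgl1 WT was above 0 for 20 genes and below 0 for 17, with a median of 0.01, the same as the median of 0.01 over all genes tested. It ran from -0.14 for *Crot*, the peroxisomal carnitine acyltransferase, to 0.28 for *Cpt1a*.

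In the fit on genotype alone, the whole 95% interval of the log2 fold change lay within 0.5 of 0 for 31 genes and within 1 of 0 for all 37. The widest was that of *Acot1*, from -0.72 to 0.85. With a term for the run of mouse numbers, 27 genes lay within 0.5 and 36 within 1, and without the first run 25 and 36, with the interval of *Acot1* then reaching 1.03 and 1.33. Fold changes on this scale understate those of genes near 1 FPKM or below, such as *Acot2* and *Acot3*.

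**Figure D2:**
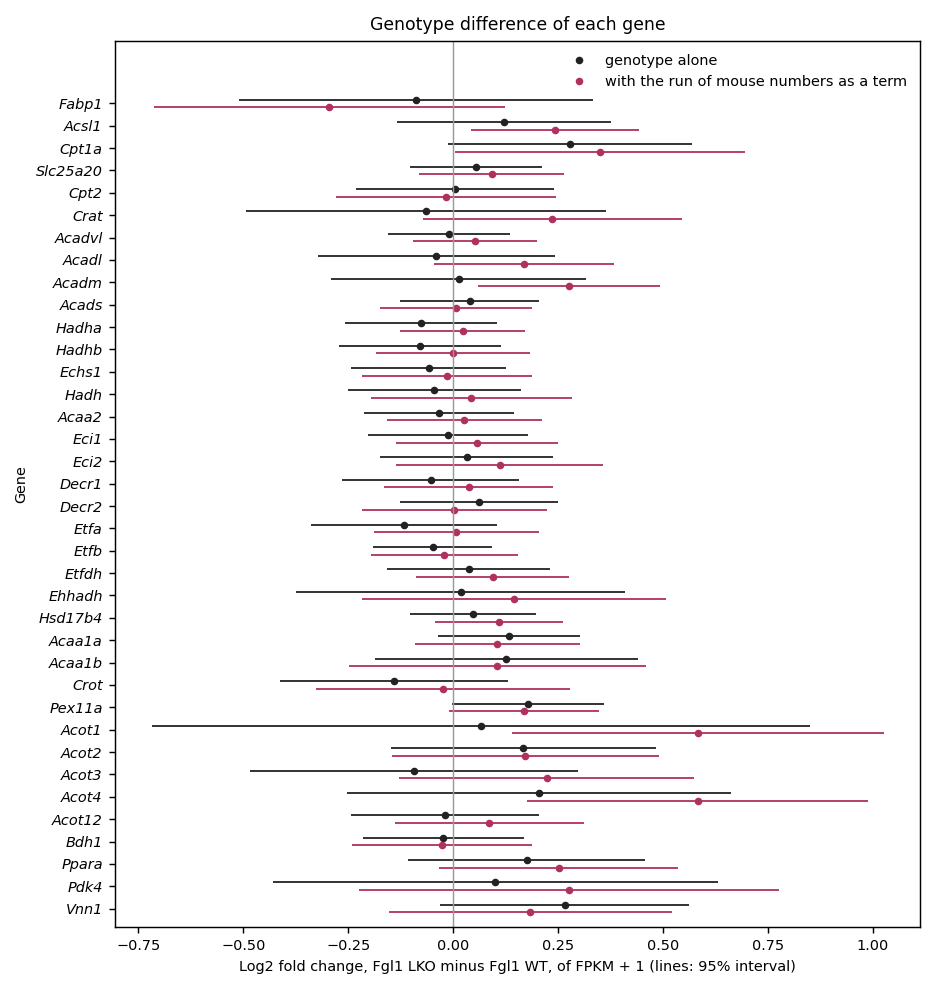
Log2 fold change of each of the 37 genes, Fgl1 LKO minus Fgl1 WT, on the log2(FPKM + 1) scale with its 95% interval, fitted on genotype alone (black) and with a term for the run of mouse numbers (red). All black intervals include 0, and 30 of the 37 red points lie above 0, against 20 of the black ones.

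Among the genes of fatty acid binding, activation and transport, *Cpt1a* was nearest to a difference. Its level was 47.6 to 77.7 FPKM in Fgl1 WT livers (median 72.3) and 48.7 to 108.8 FPKM in Fgl1 LKO livers (median 92.3). The log2 fold change was 0.28 ± 0.14 (SE, n = 8 per genotype), with an adjusted p of 0.696 by limma and an exact permutation p of 0.0890. Of 8 Fgl1 LKO livers, 5 lay above the highest Fgl1 WT liver. *Acsl1*, which activates long-chain fatty acids, had medians of 200.3 FPKM in Fgl1 WT and 223.1 FPKM in Fgl1 LKO. *Cpt2* and *Slc25a20*, which complete the carnitine shuttle, had log2 fold changes of 0.0042 and 0.06. *Crat*, which moves acetyl groups to carnitine, was low and variable, with 4.66 to 13.1 FPKM in Fgl1 WT (median 6.47) and 4.17 to 11.5 FPKM in Fgl1 LKO (median 7.11).

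The 9 enzymes of mitochondrial beta-oxidation stayed close to 0. Their log2 fold changes ran from -0.08 to 0.04, and 2 were above 0. They were the chain-length-specific dehydrogenases *Acadvl*, *Acadl*, *Acadm* and *Acads*, the trifunctional protein subunits *Hadha* and *Hadhb*, and the matrix enzymes *Echs1*, *Hadh* and *Acaa2*. *Hadha* and *Hadhb* lie head to head on chromosome 5, with 64 bases between their annotated start sites, and had log2 fold changes of -0.08 each. On genotype alone, the 4 enzymes that prepare unsaturated chains, *Eci1*, *Eci2*, *Decr1* and *Decr2*, ran from -0.05 to 0.06. *Etfa*, *Etfb* and *Etfdh*, which pass the electrons to the respiratory chain, ran from -0.12 to 0.04.

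In the peroxisomal group, 5 of 6 log2 fold changes were above 0. *Pex11a*, a protein of peroxisome division, had the smallest unadjusted p of the 37 genes, 0.0520, with a log2 fold change of 0.18 ± 0.09 (SE, n = 8 per genotype), and its adjusted p by limma was 0.696. Its level was 16.9 to 26.8 FPKM in Fgl1 WT (median 23.5) and 23.1 to 31.5 FPKM in Fgl1 LKO (median 25.3). *Ehhadh*, the bifunctional enzyme of the peroxisome, ranged from 42.4 to 88.9 FPKM (median 71.1) and from 49.2 to 118.7 FPKM (median 64.7). *Hsd17b4*, the other bifunctional enzyme, had a log2 fold change of 0.05 and *Acaa1a* one of 0.13.

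The thioesterases release free fatty acids from acyl-CoA. *Acot1* had the largest spread between mice within a genotype of all 37 genes, with a residual SD of 0.83 on the log2 scale, against a median of 0.22 over the 37 genes and 0.17 over all genes tested. It ranged from 1.62 to 16.9 FPKM in Fgl1 WT (median 5.49) and from 3.40 to 10.9 FPKM in Fgl1 LKO (median 5.57). *Acot4*, a peroxisomal thioesterase, ranged from 2.68 to 10.3 FPKM (median 4.75) and from 3.87 to 7.44 FPKM (median 6.29). *Acot12*, which acts on acetyl-CoA, had medians of 33.4 and 32.3 FPKM.

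*Bdh1*, which reduces acetoacetate to 3-hydroxybutyrate, was 45.5 to 67.8 FPKM in Fgl1 WT (median 54.1) and 43.1 to 59.1 FPKM in Fgl1 LKO (median 55.0), with a log2 fold change of -0.02. *Ppara* was 21.7 to 36.1 FPKM in Fgl1 WT (median 29.0) and 21.9 to 44.7 FPKM in Fgl1 LKO (median 34.5), with a log2 fold change of 0.17 and an adjusted p of 0.777 by limma. *Vnn1*, a pantetheinase that PPARA is known to induce, had a log2 fold change of 0.27 and an adjusted p of 0.704 by limma.

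The first run of mouse numbers, which held Fgl1 WT mice only, moved these values. With a term for the run in the fit, 30 of 37 log2 fold changes were above 0 and their median was 0.09, against 0.02 over all genes. Without the 3 mice of the first run, 34 of 37 were above 0 and the median was 0.11, against 0.03 over all genes. No member passed the adjusted threshold in either fit. An unadjusted p under 0.05 was reached by 5 of 37 genes with the run as a term, against 8.08% of all genes, and by 5 of 37 without the first run, against 6.37% of all genes. The names, *Acsl1*, *Cpt1a*, *Acadm*, *Acot1* and *Acot4*, were the same, and the fits share 13 mice. With the run as a term, *Acot4* had a log2 fold change of 0.58 ± 0.19 (SE), with an unadjusted p of 0.00801 and an adjusted p of 0.522 by limma, and *Acot1* one of 0.58 ± 0.21 (SE), with an adjusted p of 0.535. In the first run, the genotype and the run cannot be told apart.

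Other genes of the pathway, 92 in lists that hold none of the 37, gave the same count of calls. None passed the adjusted threshold, and 10 had an unadjusted p under 0.05, 8 of them with more and 2 with less in Fgl1 LKO livers, each with an adjusted p of 0.696 by limma. The background over all genes was 7.01%, with 593 higher and 302 lower, so this count is not read as a result about the pathway. Of 19 mitochondrial genes, *Nudt8* and *Acot9* were among them, with log2 fold changes of 0.20 and 0.22. Of 19 peroxisomal genes, *Acot8*, a thioesterase, was at 0.18 and *Pex7*, a receptor for protein import, at -0.29. Of 8 ketone body genes it was *Slc16a1*, the transporter MCT1, at 0.28. Of 17 genes of uptake and activation, *Acsl4* was at 0.67 and *Acbd5*, a peroxisomal acyl-CoA binding protein, at -0.27. Of 29 genes in a list of PPARA targets, partners and related genes, *Plin2*, which coats lipid droplets, was at 0.43. *Plin4* was at 0.28 and *Ucp2* at 0.32. The Kupffer cell markers *Vsig4* and *Adgre1*, of 6 in that list, also had an unadjusted p under 0.05 and were higher in Fgl1 LKO, and their part in these values was not tested.

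Between livers, most pairs of the 37 genes were positively correlated. Of the 666 pairs among the 37 genes, 613 had a Pearson r above 0 across the 16 mice and 122 had one above 0.7, with a median of 0.49. Pairs share libraries and their scaling, so this is given as a description. The same values over pairs of all genes are not given here, so this is not read as a trait of the 37 genes. To place this variation, each gene tested was correlated across the 16 mice with 3 reference genes: *Saa1*, a serum protein of the acute-phase response, *Cpt1a*, and *Fasn*, the enzyme that makes fatty acids in the fed state. Permutation p-values were adjusted over the 12769 other genes.

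*Saa1* was the most variable of the reference genes. It ranged from 63.8 to 16268 FPKM in Fgl1 WT livers (median 531.2) and from 68.4 to 7669 FPKM in Fgl1 LKO livers (median 2359). The 3 mice of the first run had the 3 lowest levels among Fgl1 WT livers, between 63.8 and 71.4 FPKM, and 1 Fgl1 LKO liver, replicate 3, lay at the same level.

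Genes of fatty acid oxidation tended to be lower in livers with more *Saa1*. Pearson r was negative for 35 of 37 genes, with a median of -0.60, against a median of -0.17 over all genes. With the adjusted threshold, 7 of the 37 were called, all with a negative r, while 1.36% of all genes were called in either direction and 0.908% with a negative r. They were *Acaa2*, *Hadhb*, *Acot1*, *Ehhadh*, *Acadl*, *Etfa* and *Hadha*. With Spearman's rho, *Hadhb*, *Acaa2* and *Etfa* were called, against 0.674% of all genes.

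**Figure D3:**
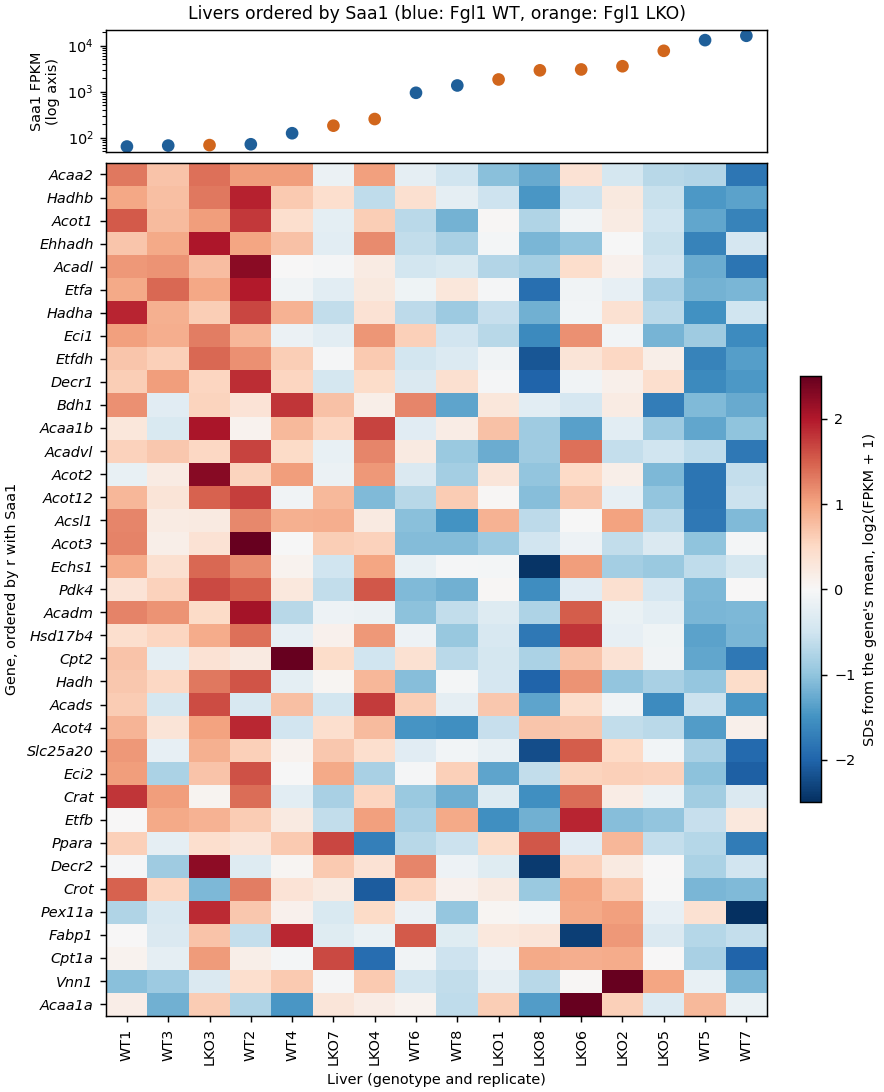
Upper panel: *Saa1* in FPKM on a log axis in the 16 livers in rising order, with Fgl1 WT in blue and Fgl1 LKO in orange. Lower panel: each of the 37 genes, as SDs from its mean of log2(FPKM + 1), with genes ordered by their r with *Saa1*. Red (higher) lies mainly at the low *Saa1* end and blue (lower) at the high end for the upper rows, and the last rows, *Vnn1* and *Acaa1a*, with r of 0.13 and 0.28, do not show it.

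*Acaa2* lay between 522.3 and 562.3 FPKM in the 4 livers with the least *Saa1* (Fgl1 WT replicates 1, 2 and 3 and Fgl1 LKO replicate 3), and was 444.7 and 394.8 FPKM in the 2 livers with the most (Fgl1 WT replicates 5 and 7). Its r was -0.87 and its rho was -0.84 (adjusted permutation p of 0.0200 and 0.0385). *Hadhb*, the beta subunit of the trifunctional protein, had an r of -0.84 and a rho of -0.83 (adjusted permutation p of 0.0170 and 0.0374). In the same 4 livers it lay between 100.6 and 117.0 FPKM, and in the 2 livers with the highest *Saa1* it was 75.5 and 76.5 FPKM.

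*Acot1* had the largest residual SD of the 7 genes called. It was 9.33 to 16.9 FPKM in the 4 livers with the least *Saa1* and 2.22 and 1.62 FPKM in the 2 with the most *Saa1*, with an r of -0.84 and a rho of -0.80 (adjusted permutation p of 0.0196 and 0.0516). *Ehhadh* had an r of -0.81 and a rho of -0.70, and *Acadl*, the long-chain dehydrogenase, an r of -0.81 and a rho of -0.78 (adjusted permutation p of r 0.0252 and 0.0200). Without the 2 livers farthest from the median of *Saa1*, Fgl1 WT replicates 1 and 3, r was -0.84 for *Acaa2*, -0.82 for *Hadhb*, -0.80 for *Acot1*, -0.79 for *Ehhadh* and -0.76 for *Acadl*.

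By role, the median r with *Saa1* was -0.68 for the mitochondrial beta-oxidation enzymes, 4 of 9 of which were called, and -0.72 for the electron transfer genes. It was -0.66 for the thioesterases, -0.59 for the enzymes for unsaturated chains, -0.51 for binding, activation and shuttle, and -0.44 for the peroxisomal genes. *Bdh1* had an r of -0.69. *Cpt1a*, *Ppara* and *Fabp1* had r of -0.26, -0.34 and -0.26 and were not called. *Acaa1a*, a close paralog of *Acaa1b*, had an r of 0.28, and *Acaa1b* one of -0.69.

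**Figure D4:**
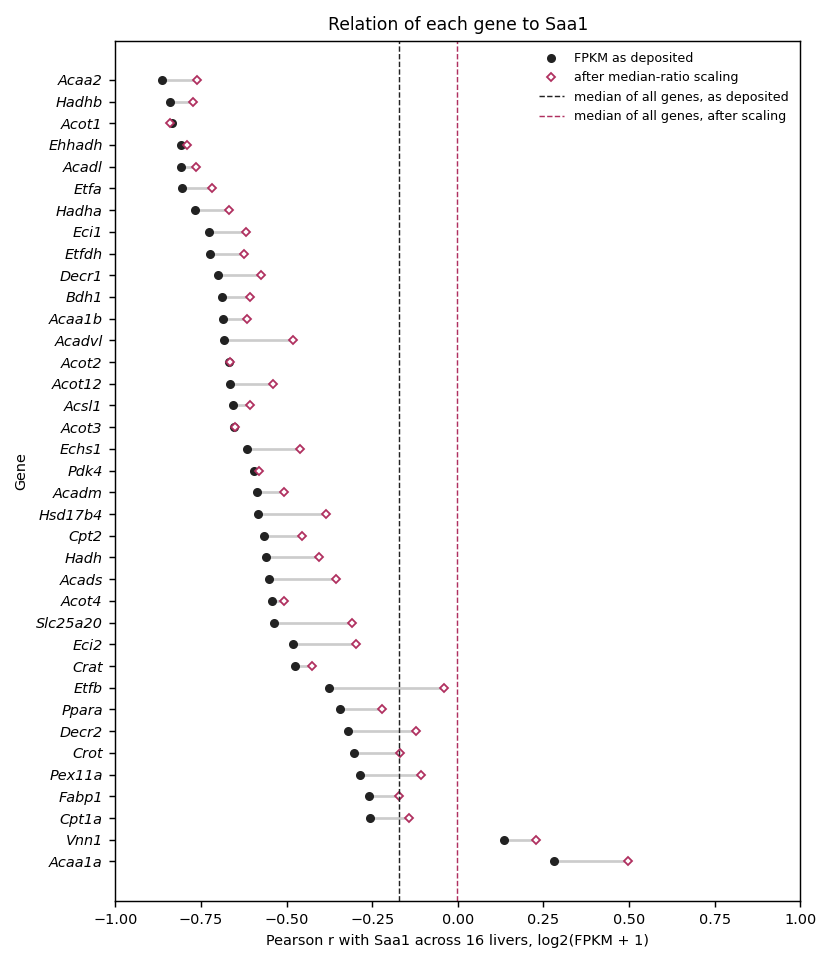
Pearson r of each of the 37 genes with *Saa1* across 16 livers on log2(FPKM + 1), from the FPKM as deposited (black) and after median-ratio scaling between mice (red diamonds), with the median over all genes as dashed lines. The median of all genes moves from -0.17 to -0.0034 with the scaling and the median of the 37 genes from -0.60 to -0.51.

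The number of genes called depended on the scaling and on single livers. *Saa1* was itself related to the median-ratio factor of the libraries, with an r of -0.64 (permutation p of 0.00733) and a rho of -0.61 (p of 0.0143), and an r of -0.69 without the 2 farthest livers. After median-ratio scaling, r was negative for 35 of 37 genes, and the median was -0.51 against -0.0034 over all genes. In that setting 2 of the 37 were called, *Ehhadh* and *Acot1*, against 0.783% of all genes. Without the 2 farthest livers, 36 of 37 had a negative r and the median was -0.61, but 0 of the 37 were called among the 14 mice left, against 0.305% of all genes. Leaving out 1 liver at a time left between 1 and 11 of the 37 called, against between 0.345% and 2.22% of all genes. Without Fgl1 WT replicate 2 or 5 it was 1, *Acaa2*, against 0.407% and 0.345% of all genes. Without Fgl1 WT replicate 3 or Fgl1 LKO replicate 3 it was 4, against 0.509% and 0.54%. Without Fgl1 LKO replicate 6 it was 11, against 2.08%. The share over all genes moved as well, so these counts are not read as a change in the 37 genes. The median r stayed between -0.68 and -0.55 in these 16 settings.

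The relation was present in each genotype as a value. Among the 8 Fgl1 WT mice, r was negative for 36 of 37 genes with a median of -0.80, and among the 8 Fgl1 LKO mice for 34 of 37 with a median of -0.47. The difference between the genotypes was not tested. With genotype means removed, 10 of the 37 genes were called, against 2.3% of all genes. With genotype and run removed, 5 were called, *Acadvl*, *Acads*, *Acaa2*, *Acaa1b* and *Acot1*, against 1.64% of all genes. Both used permutation of the residuals, which is approximate.

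The summed levels of some marker lists of cell types moved with *Saa1* as well. The summed level of the hepatocyte list had an r of -0.80 (permutation p of 1.4e-04, adjusted over the lists 0.00105), that of the sinusoidal endothelial list one of -0.69 and that of the leukocyte list one of 0.73 (adjusted permutation p of 0.00786 each). Their rho was -0.80, -0.70 and 0.74, and without the 2 farthest livers r was -0.77, -0.67 and 0.65. Summed levels ran from 31.99 to 127.5 FPKM for the sinusoidal list and from 2.54 to 33.8 FPKM for the leukocyte list. The Kupffer cell list had an r of 0.24. The hepatocyte list consists of *Alb*, *Ttr*, *Apoa1*, *Serpina1c*, *Cyp2e1* and *Cps1*, and its sum is not a count of cells. In bulk liver, fewer hepatocytes and less of these RNAs per hepatocyte cannot be told apart. The part of cell composition in the relation with *Saa1* was not tested. Of the 92 other pathway genes, 73 had a negative r with *Saa1*, with a median of -0.30 against -0.17 over all genes, and 3 were called, against 1.36% of all genes.

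With *Cpt1a* as the reference, 0 of 36 genes were called, as were 0% of all genes, but the number of resamples limits both counts. Among Fgl1 WT mice the median r was 0.70 over the 36 genes, against 0.22 over all genes, and 1 of 36 was negative. Among Fgl1 LKO mice it was -0.12, against -0.0032 over all genes, and 20 of 36 were negative. The difference between the genotypes was not tested. *Ppara* was closest, with an r of 0.86 and a rho of 0.78. Its permutation p of 1e-05 is the smallest that these resamples can give, and its adjusted p was 0.0638. With so few genes at this smallest p, *Ppara* could not pass the adjusted threshold, however close its relation with *Cpt1a*. The counts of 0 of 36 and 0% are therefore not read as an absence of relations with *Cpt1a*. Fgl1 WT replicate 7 and Fgl1 LKO replicate 4 were the livers farthest from the median of *Cpt1a*, with 47.6 and 48.7 FPKM, and they had the lowest *Ppara*, 21.7 and 21.9 FPKM. The highest *Cpt1a*, 108.8 FPKM, was in Fgl1 LKO replicate 7, which also had the highest *Ppara*, 44.7 FPKM.

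Without the 2 livers farthest from the median, the r of *Ppara* with *Cpt1a* was 0.73. It was 0.88 among Fgl1 WT mice and 0.84 among Fgl1 LKO mice. With genotype and run removed it was 0.86, and *Ppara* was then the 1 gene of the 36 called, against 0.125% of all genes. The next in size were *Eci2* with an r of 0.64, *Pex11a* with 0.52, *Cpt2* with 0.49 and *Acot12* with 0.46, with adjusted permutation p between 0.569 and 0.733. A list of PPARA targets, partners and related genes outside the 37 was taken as a sum of FPKM, in which abundant genes weigh most. The sum had an r of 0.75 with *Cpt1a* (permutation p of 0.00107, adjusted over the lists 0.0160) and a rho of 0.73. Without those 2 livers its r was 0.66. Over the 36 genes, the median r with *Cpt1a* was 0.19 and 4 were negative. *Ehhadh*, *Vnn1* and *Pdk4* had r of 0.0078, 0.23 and -0.12. A shared control by PPARA was not tested.

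**Figure D5:**
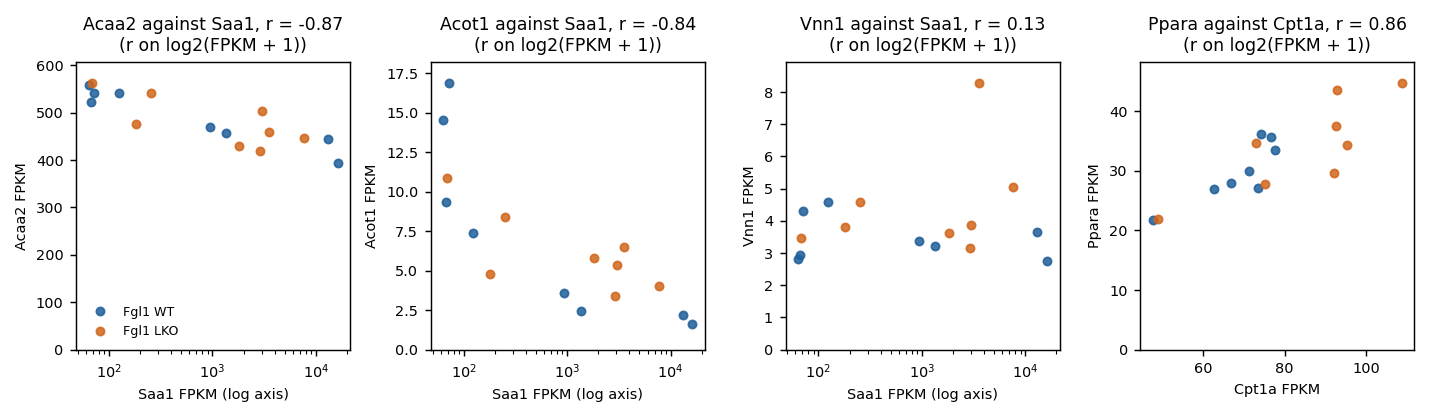
FPKM in each of the 16 livers, Fgl1 WT in blue and Fgl1 LKO in orange: *Acaa2*, *Acot1* and *Vnn1* against *Saa1* (log axis), and *Ppara* against *Cpt1a*, with r on log2(FPKM + 1) above each panel. *Acaa2* and *Acot1* fall with *Saa1* (r of -0.87 and -0.84), *Vnn1* does not (0.13), and *Ppara* rises with *Cpt1a* (0.86).

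With *Fasn* as the reference, 0 of 37 genes were called, against 0.595% of all genes. *Fasn* ranged from 17.6 to 158.9 FPKM in Fgl1 WT and from 40.9 to 291.5 FPKM in Fgl1 LKO. The largest r were 0.60 for *Pdk4*, -0.60 for *Crot*, 0.58 for *Acot2*, 0.54 for *Ehhadh* and 0.53 for *Acaa1b*, with rho of 0.49, -0.43, 0.46, 0.47 and 0.43 and adjusted permutation p between 0.303 and 0.395. Without Fgl1 LKO replicates 3 and 4, which had the most *Fasn*, these r were 0.31, -0.26, 0.32, 0.25 and 0.08, so they rest on those 2 livers. Genes taught as fasting or PPARA genes did not share a sign within the genotypes. *Pdk4* and *Ehhadh* had r of 0.31 and 0.19 in Fgl1 WT and 0.83 and 0.85 in Fgl1 LKO. *Cpt1a* and *Ppara* had r of -0.42 and -0.18 in Fgl1 WT and -0.66 and -0.52 in Fgl1 LKO. Of all 37 genes, 24 had a negative r in Fgl1 WT and 8 in Fgl1 LKO. With genotype and run removed, *Crot* was called, with an r of -0.73, but 2.57% of all genes were called in that setting, so 1 of 37 is near the background.

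The runs of mouse numbers were then compared directly, in a test added after the data were seen, with genotype as a term. *Acot1* was the 1 gene of 37 past the adjusted threshold (limma F test, F of 20.9, adjusted p of 0.0280), against 0.102% of all genes. Its median fell from 14.6 FPKM in the first run to 6.93 in the second, 4.02 in the third and 2.92 in the fourth. Between 9.33 and 16.9 FPKM were found in the first run and between 1.62 and 4.82 FPKM in the fourth. An unadjusted p under 0.05 was reached by 16 of 37 genes, against 17.6% of all genes.

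The call of *Acot1* by run rested on few livers. Without the first run no gene of the 37 passed, and none did without any one of Fgl1 WT replicates 1, 2, 5, 6 or 7 or Fgl1 LKO replicates 3, 5 or 7. Without Fgl1 LKO replicate 6, 2 passed. Next by F were *Acadm*, the medium-chain dehydrogenase, with a median of 143.6 FPKM in the first run and between 95.1 and 104.7 FPKM in the others, and *Crat*, with 11.5 FPKM in the first run and between 5.04 and 6.97 FPKM in the others. Their adjusted p by limma were 0.0820 and 0.0857. *Saa1* was also lowest in the first run, and the run and *Saa1* cannot be told apart there.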

How the data were processed

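RNA of 16 mouse livers, 8 Fgl1 WT and 8 Fgl1 LKO, was sequenced after polyA selection with a stranded protocol in paired reads of 150 bases. The study's methods name HISAT for alignment to mm39 and Bowtie2 for alignment to reference genes, with no versions used here. The values of 17003 genes were deposited by the authors as FPKM in 1 table, with 2 decimals; no column belonged to a sample of another series. FPKM keep no read totals, so the depth behind a value is unknown and no counting interval is given. The methods give another number of mice per genotype than the deposit, and the basis of the difference is not given in the sources used here. Groups followed the labels, and nothing says that the mice were handled in batches.

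The 37 genes and all gene lists were chosen with earlier results of these data known. Of the FPKM, log2(FPKM + 1) was tested with limma 3.58.1 in R 4.3.3 (trend, two-sided, Benjamini-Hochberg, threshold 0.05) for genes whose mean reached 0.1 FPKM, which kept 12770 genes and all 37. Single genes had an exact permutation test over the mice. Correlations with *Cpt1a*, *Fasn* and *Saa1* used Pearson's r and Spearman's rho with two-sided permutation p-values of 100000 resamples (numpy 2.4.6, scipy 1.17.1), adjusted over all genes kept. Scripts were tested on simulated data. Sequences and positions were read from GRCm39 with GENCODE annotation. Alternatives changed the pseudocount, the filter, the scaling, the block, the run and the mice. The F test of the run of mouse numbers, its alternatives, and leaving out single mice from the *Saa1* correlation were chosen after seeing the data. Genes chosen for full values were the 3 highest, the 3 lowest, the 6 with the largest residual SD, *Cpt1a*, *Ppara* and *Bdh1*. The genes with the 5 largest r per reference gene were named with their r.

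Of the other lists fixed for the tissue, the median log2 fold change was -0.13 for the hepatocyte list, 0.20 for Kupffer cells, 0.01 for sinusoidal endothelium, 0.08 for stellate cells, 0.22 for cholangiocytes, 0.11 for leukocytes, 0.20 for acute-phase genes, 0.24 for feeding and fasting genes and 0.02 for clock genes, and 0 genes of any list passed the adjusted threshold.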

Additional observations from a re-analysis of the deposited data

Results flagged for a closer look

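Within each genotype, the highest and the lowest liver of each of the 37 genes was compared with the rest by Dixon's ratio. Of 74 groups, 8 held a liver past the 95% limit, where chance alone gives about 3.7. The groups share livers and many of the genes are correlated, so the 8 are not read as an excess over chance. In 3 genes the lowest of the Fgl1 LKO livers was replicate 8, with 37.2 FPKM of *Slc25a20* (next liver 45.8), 27.3 FPKM of *Decr1* (next 34.3) and 81.3 FPKM of *Etfdh* (next 106.2). *Fabp1* was 2691 FPKM in Fgl1 LKO replicate 6, with the next liver at 4782 FPKM. *Bdh1* was 43.1 FPKM in Fgl1 LKO replicate 5, next to 51.0 FPKM. *Vnn1* was 8.28 FPKM in Fgl1 LKO replicate 2, the highest, with the next at 5.05 FPKM. Of the Fgl1 WT livers, *Cpt1a* was 47.6 FPKM in replicate 7, with the next at 62.5 FPKM, and *Decr2* was 64.8 FPKM in replicate 6, the highest, with the next at 55.8 FPKM.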

How the results depend on the processing

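The absence of a gene of the 37 past the adjusted threshold for genotype held in all 24 alternatives (*Acot2* and *Acot3* fell under the stricter filter of 1 FPKM and were not tested there). Over all genes, 1 gene, *Fgl1*, passed with the replicate block, with a term for the run of mouse numbers, and without the first run, and 0 in the other alternatives. Same-numbered mice did not deviate together (correlations of -0.16 to 0.45, over 0.1 in 3 of 8 pairs), so the numbers are not taken as pairs. With the replicate block, 2 of the 37 had an unadjusted p under 0.05, *Pex11a* and *Vnn1*; with median-ratio scaling it was 1, *Pex11a*; and with the run as a term or without the first run it was 5. Leaving out 1 mouse gave 0 to 3 (3 without Fgl1 LKO replicate 8), and a median log2 fold change of the 37 between -0.04 and 0.06.

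Genes past the threshold for *Saa1* numbered 2 after median-ratio scaling, 0 without the 2 farthest mice, and 1 to 11 with 1 mouse left out. The shares of all genes called were 0.783%, 0.305%, and 0.345% to 2.22%. With genotype and run removed, 1 gene was called for *Cpt1a* and 1 for *Fasn*, against 0.125% and 2.57% of all genes. Without the first run, 0 genes differed by run, and 0 to 2 with 1 mouse left out. The causes were not tested.

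The sign of the log2 fold change was the same in every alternative for 15 genes and changed in some for 22, none of which was called. It turned to 0.03 for *Acot3* with a pseudocount of 0.1. With median-ratio scaling it became *Cpt2* -0.014, *Acadm* -0.0050 and *Ehhadh* -0.0007, and with quantile normalization *Cpt2* -0.019 and *Ehhadh* -0.0097. With the run as a term it became *Cpt2* -0.017, *Crat* 0.24, *Acadvl* 0.052, *Acadl* 0.17, *Hadha* 0.022, *Hadh* 0.043, *Acaa2* 0.027, *Eci1* 0.057, *Decr1* 0.037, *Etfa* 0.0076, *Acot3* 0.22 and *Acot12* 0.087. Without the first run it became *Crat* 0.28, *Acadvl* 0.062, *Acadl* 0.20, *Hadha* 0.054, *Hadhb* 0.034, *Echs1* 0.013, *Hadh* 0.051, *Acaa2* 0.055, *Eci1* 0.084, *Decr1* 0.074, *Etfa* 0.041, *Acot3* 0.21, *Acot12* 0.10 and *Bdh1* 0.012. With 1 mouse left out, it ran from -0.16 to 0.043 for *Crat*, -0.042 to 0.020 for *Acadvl*, -0.12 to 0.048 for *Acadl*, -0.053 to 0.029 for *Eci1*, -0.077 to 0.033 for *Acot12*, -0.060 to 0.021 for *Bdh1*, -0.16 to 0.059 for *Acot3*, -0.054 to 0.090 for *Cpt2*, -0.16 to 0.046 for *Fabp1*, -0.051 to 0.10 for *Acadm*, -0.0037 to 0.10 for *Etfdh*, -0.10 to 0.083 for *Ehhadh*, -0.12 to 0.27 for *Acot1*, -0.024 to 0.080 for *Eci2*, -0.019 to 0.23 for *Pdk4*, -0.085 to 0.0084 for *Hadh* and -0.10 to 0.0015 for *Decr1*.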
